A study of Mus musculus with 3 samples.

Results

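The levels of 10 genes of plasma proteins made by the liver were followed across 3 mouse cell cultures. The genes are Afp, Alb, Ahsg, Fga, Fgb, Fgg, Ttr, Apoa1, Apob and Serpina1a. They were taken from a list of names, and every probe that carries a RefSeq accession of one of them was read on every array. Of the 10 genes, 9 have a probe, 13 probes in all, out of 18951 genes and 27815 probes named in the same way. No probe received the name Serpina1a, and that gene was not analysed here. Each culture was measured on 1 one-colour Agilent array. The 7-factor culture came from embryonic fibroblasts of ICR mice (embryonic day 13.5) infected with retroviruses for the reprogramming factors Oct3/4, c-Myc, Klf4 and Sox2 and the thyroid factors Foxe1, Nkx2.1 and Pax8. The 8-factor culture was made from the same kind of cells with Hhex, a factor of foregut, liver and thyroid development, in addition. Both were labelled day 21 and had spent their last weeks in medium with thyroid stimulating hormone and potassium iodide. The third culture held follicular cells of the thyroid of adult ICR mice after 1 week in that medium. The labels do not say how many mice or dishes went into a culture, and uninfected fibroblasts and liver are not among the samples, so a value cannot be set against the starting cells or against hepatocytes.

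Hepatocytes secrete most of the protein of blood plasma. Albumin carries fatty acids and hormones, alpha-fetoprotein takes its place in the fetus, fibrinogen is assembled from alpha, beta and gamma chains and forms the clot, and the apolipoproteins package lipids. These genes are classic targets of the liver factors HNF1, HNF4, FOXA and C/EBP, and several of them are also read in the visceral endoderm of the yolk sac. Transthyretin and albumin carry thyroid hormone in blood. By their titles, the induced cultures were meant to be like thyroid follicular cells, and thyroid and liver both arise from the foregut endoderm.

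The 5 promoters below belong to 2 groups of neighbouring genes, within which the measured genes differed between the cultures in unlike ways: the fibrinogen genes, of which Fga was not above background, and the pair of Alb and Afp. Each line holds the 250 bases before the RefSeq start of the gene (GRCm38.p6), read 5′ to 3′ along the gene's strand. Capitals mark the letters GTTAAT, the half-site of HNF1, on either strand, and the TATA box letters TATAAA.
Fgb, chr3:83049864-83050113, minus strand: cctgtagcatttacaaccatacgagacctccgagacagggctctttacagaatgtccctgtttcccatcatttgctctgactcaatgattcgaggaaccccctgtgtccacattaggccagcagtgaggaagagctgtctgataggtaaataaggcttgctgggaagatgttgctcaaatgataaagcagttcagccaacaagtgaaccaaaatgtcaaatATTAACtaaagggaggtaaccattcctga
Fgg, chr3:83007474-83007723, plus strand: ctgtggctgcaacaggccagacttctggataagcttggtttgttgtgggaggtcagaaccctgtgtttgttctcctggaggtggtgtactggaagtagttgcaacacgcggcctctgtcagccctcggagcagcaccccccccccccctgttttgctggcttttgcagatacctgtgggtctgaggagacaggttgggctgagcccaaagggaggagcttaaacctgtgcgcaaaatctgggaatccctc
Fga, chr3:83025903-83026152, plus strand: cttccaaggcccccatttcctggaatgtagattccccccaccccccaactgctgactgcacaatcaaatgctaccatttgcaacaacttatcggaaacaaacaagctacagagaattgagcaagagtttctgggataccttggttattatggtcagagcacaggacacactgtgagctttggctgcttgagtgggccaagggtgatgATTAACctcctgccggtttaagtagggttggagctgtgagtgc
Alb, chr5:90460620-90460869, plus strand: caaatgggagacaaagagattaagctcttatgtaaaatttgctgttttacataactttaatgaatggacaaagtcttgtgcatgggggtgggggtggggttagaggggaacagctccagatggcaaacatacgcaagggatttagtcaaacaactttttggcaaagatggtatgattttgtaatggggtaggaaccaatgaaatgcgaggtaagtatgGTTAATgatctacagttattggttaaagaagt
Afp, chr5:90490464-90490713, plus strand: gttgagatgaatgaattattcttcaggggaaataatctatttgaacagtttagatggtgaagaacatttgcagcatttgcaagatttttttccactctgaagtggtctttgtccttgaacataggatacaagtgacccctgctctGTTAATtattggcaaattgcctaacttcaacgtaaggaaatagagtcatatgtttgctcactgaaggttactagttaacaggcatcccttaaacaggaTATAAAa

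The HNF1 half-site was found before the starts of Fgb, Fga, Alb and Afp and not in the Fgg window. With Serpina1a, 5 of the 9 members searched held it, against 6.43% of all 32851 promoter windows of the same length. Ttr was left out of the search, so the counts of members say nothing about it. Counted from the start, it lay at -29 to -24 in Fgb, -43 to -38 in Fga, -32 to -27 in Alb and -105 to -100 in Afp. The letters TGTTTGC, a core that FOXA factors bind, occurred in 6 of 9 windows (Afp, Ahsg, Alb, Apoa1, Apob and Serpina1a) and in 4.3% of all windows, while TGTTTAC occurred in 0 of 9 and in 3.17% of all. The letters CAAGTG, a core bound by NKX2-1, stood in the windows of Afp and Fgb and in 11.6% of all windows. TTGCG, a half-site of C/EBP, was in 3 of 9 (Ahsg, Alb and Fgg) and 14.5% of all. CAAAGTCCA, an HNF4 repeat, was in 0 of 9 and 0.384% of all. The letters TTGCNNCAA, also searched, were in 1 of 9 (Fga) and 1.74% of all. TATAAA occurred in Afp and Apob and in 12.4% of all windows, and CCAAT in Afp, Alb and Serpina1a and in 33.8%. Both strands were searched, and the only overlap within the 9 windows was of an HNF1 half-site with a CCAAT box in Serpina1a. A match of letters is a description of the sequence and does not show binding. Alb and Afp shared the HNF1 letters, and Fgb and Afp the letters CAAGTG. Any bearing of these letters on the levels below was not tested.

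Levels below are log2 of the processed signal minus the 75th percentile of the array, so that 0 is the signal of the upper quartile. With 7 factors that quartile was 2190 intensity units, with 8 factors 2535 and in primary cells 504, and the scanner software marked 78.2%, 78.2% and 64.2% of spots as well above background. The lowest signal so marked corresponded to a level of -7.78, -7.91 and -5.15, so a dim transcript was harder to see in the primary culture. A gene seen on 1 of 2 arrays is given as a bound ("at least"), set against the higher of that lowest signal and its own signal on the dim array, and a bound under 1-fold is not given. The primary culture was on another slide, read in another scan, so slide, scan and cell type cannot be told apart wherever it is compared. With 1 array per culture there is no test and no p-value. The only errors available are the scanner's own error of a spot and, for Afp and Apoa1, the spread of repeated spots, and neither covers the spread between cultures. In bulk RNA, fewer cells that express a gene and less RNA per cell cannot be told apart.

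**Figure D1:**
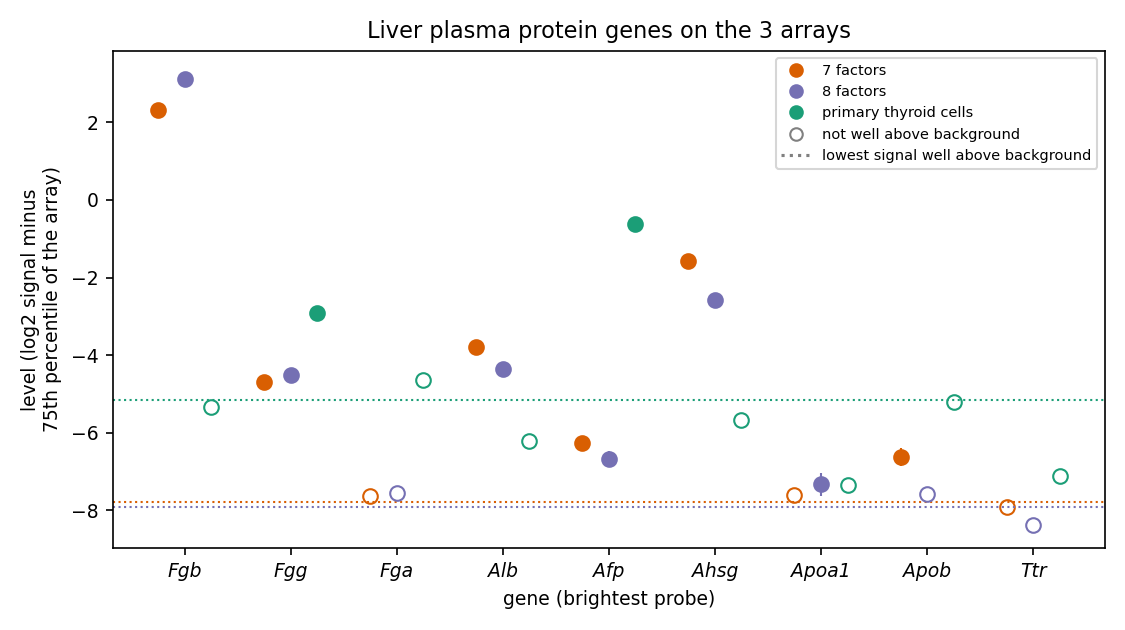
Level (log2 signal minus the 75th percentile of the array) of the brightest probe of the 9 measured genes on the 3 arrays; filled circles were well above background, open circles were not, vertical lines are the scanner error and dotted lines the lowest level well above background on each array. Fgb stands at 2.33 and 3.12 in the induced cultures and at -5.34 in primary cells, where Afp stands at -0.62.

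Among the 9 measured genes, Fgb, Ahsg and Alb were higher and Fgg and Afp lower with 7 factors, relative to primary cells, when a difference of at least 2-fold was counted. In the 8-factor culture Fgb and Ahsg were higher and Fgg and Afp lower. Of the 10 listed genes, 6 could be compared with primary cells in each case. With 7 factors 3 of the 6 were thus at least 2-fold higher and 2 lower, where 19.1% and 27.1% of the 16152 genes compared passed that mark. With 8 factors 2 of 6 were higher and 2 lower, where 17.8% and 27.5% of 16161 did. The median over the 6 genes compared was 0.68 with 7 factors and 0.40 with 8, beside 0.00 over all genes in both comparisons. In each comparison 4 of the 6 values were bounds. Among these, Apob with 7 factors and Apoa1 with 8, for which no fold can be given, were counted as 0. Each median of the members lies between that 0 and the bound of Alb, so it is no measured difference. A gene seen only in the induced cultures enters these counts only because it was high there, so they describe the list and support nothing more. Scaled to the array median, 26.1% of all genes were higher and 22.9% lower with 7 factors and 22.8% and 24.1% with 8. Without scaling the shares were 69.4% and 7.06% with 7 factors and 72.5% and 6.05% with 8. Leaving scaling out moved the median of all genes to 1.94 with 7 factors and 2.11 with 8.

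The fibrinogen genes had unlike patterns. Fgb, which encodes the beta chain, gave a processed signal of 10980 intensity units in the 7-factor culture, 21990 in the 8-factor culture and 12.5 in primary cells. Both induced cultures were far above the primary culture, in which this probe did not clear the background mark. On the scaled level these are 2.33, 3.12 and -5.34, which makes Fgb at least 178-fold higher with 7 factors and at least 308-fold higher with 8 factors (log2 bounds of 7.48 and 8.27). It had the widest range over the arrays of all the members. The bound shrank to 4.78 and 5.74 with normexp background correction and to 4.33 and 5.12 with a raised floor, and kept its direction. That floor was set at 25% of the 75th percentile signal of each array. The probe is the only one of this gene, so no second probe checks it.

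Fgg, which encodes the gamma chain, gave signals of 84.7 with 7 factors, 112 with 8 factors and 66.7 in primary cells, all of them well above background. Before scaling, the culture with the brightest spot was the 8-factor one, and the values lay close together. The scaled levels were -4.69, -4.50 and -2.92. Fgg was therefore 3.42-fold lower with 7 factors (log2 difference -1.77, scanner error 0.22) and 3.004-fold lower with 8 (-1.59, scanner error 0.22). This direction rests on the scaling, since without it the differences were 0.34 and 0.74. Both lie below the medians of all genes without scaling, 1.94 and 2.11.

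Fga, which encodes the alpha chain, was not well above background on any array, with signals of 11.1, 13.6 and 20.1. No comparison can be made for it.

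Fgg, Fga and Fgb lie in this order along the chromosome. The gene before them, Lrat, which encodes the enzyme that esterifies retinol, had levels of -6.75, -6.63 and 0.02, which are log2 differences of -6.77 and -6.64 with 7 and 8 factors. On the other side Plrg1, a splicing factor gene, was within 2-fold, at 0.64 and 0.07. Neither of these flanking genes was higher by 2-fold as Fgb was.

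Alb and Afp, which are next to each other, differed in opposite directions. Alb, the gene of albumin, gave signals of 158 with 7 factors, 125 with 8 factors and 6.83 in primary cells. It passed the background mark in both induced cultures but not in the primary one. The levels were -3.79, -4.35 and -6.21, and Alb was at least 2.56-fold higher with 7 factors and at least 1.74-fold higher with 8 (log2 bounds of 1.36 and 0.80). The bound with 8 factors passed 2-fold after scaling to the median (1.04) and after quantile normalization (1.43), and with normexp correction no bound above 0 was left in either comparison.

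Afp, the gene of alpha-fetoprotein, and Fgg were the 2 members well above background in primary cells. Its probe is spotted 10 times on each array, and all 10 spots were well above background on all 3. The signal ran from 19.5 over a median of 27.9 to 47.4 with 7 factors, from 20.5 over 24.97 to 33.1 with 8 factors, and from 265 over 339 to 366 in primary cells. The lowest spot in primary cells was brighter than the highest spot of either induced culture, although the primary array was the dimmer one. The mean levels were -6.27 ± 0.33 (SD of 10 spots on 1 array), -6.67 ± 0.22 and -0.62 ± 0.14, and Afp was 50.2-fold lower with 7 factors (log2 difference -5.65, scanner error 0.24) and 66.1-fold lower with 8 (-6.05, scanner error 0.26). Without scaling it was still 11.6-fold and 13.1-fold lower. It stayed lower under every alternative in which it could be compared, from -1.38 with the raised floor to -5.65 and -6.05. The value of -1.38 is a bound, as both induced levels lay under that floor.

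**Figure D2:**
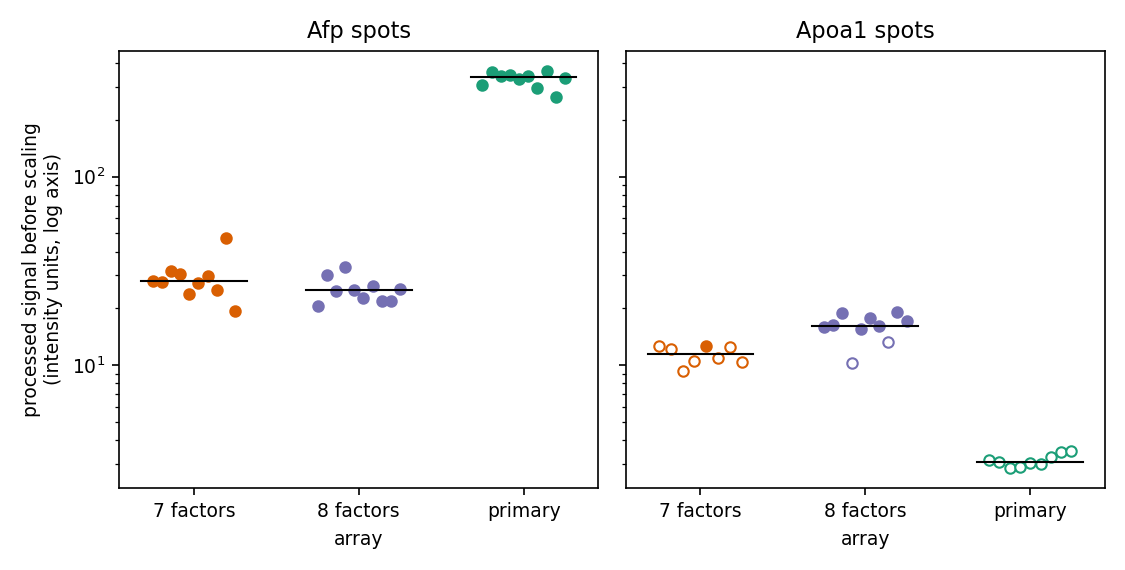
Processed signal before scaling (log axis) of every repeated spot of the Afp and Apoa1 probes on the 3 arrays; filled circles were well above background, open circles were not, and black lines are medians. The Afp spots of primary cells lie between 265 and 366, and those of the induced cultures between 19.5 and 47.4.

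Around this pair, Ankrd17, which lies before Alb, was higher by 1.14 and 1.55, and Cox18 was within 2-fold, at -0.27 and -0.11. Afm, the albumin family gene after Afp, and Albfm1 were not well above background on any array. Rassf6 beyond them differed by -1.28 and -2.22 with 75th percentile scaling, an amount below the 2.12 and 2.33 that scaling itself takes off every gene.

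**Figure D3:**
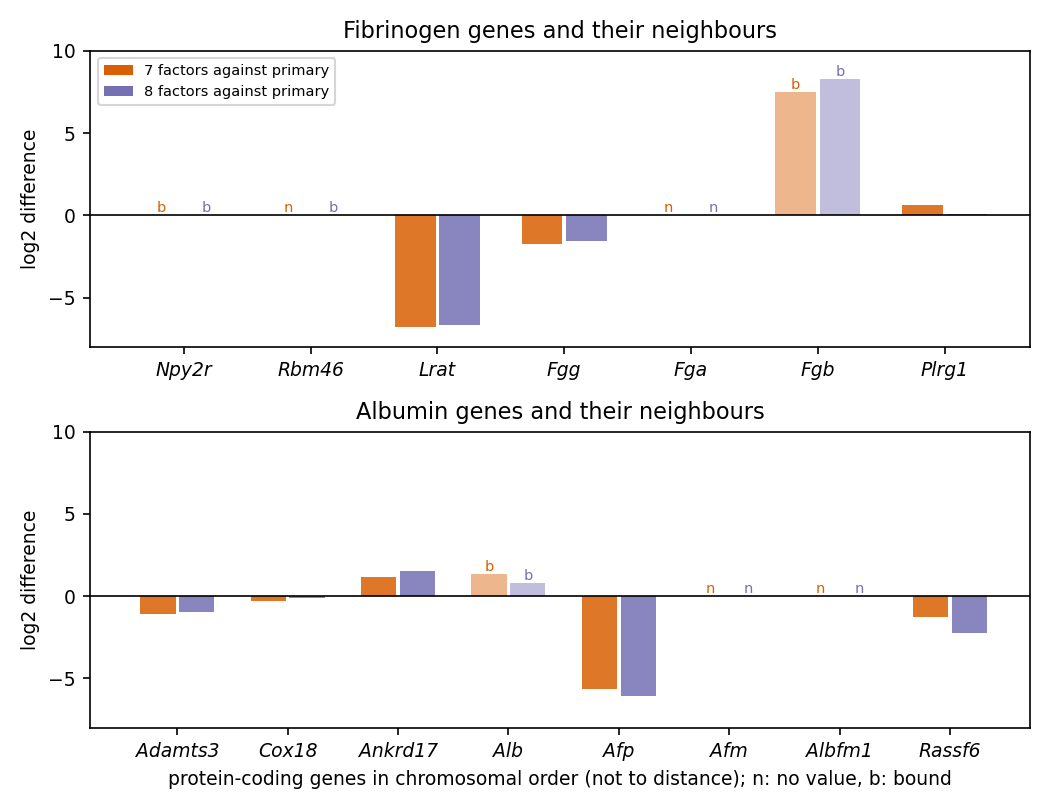
Log2 difference of each induced culture from primary cells for the fibrinogen genes (top) and for Alb and Afp (bottom) with their protein-coding neighbours in chromosomal order; pale bars with b are bounds, n marks genes without a value, and b at 0 marks genes for which no fold can be given. Fgb is the only tall bar above 0 in its row, and Alb and Afp point opposite ways.

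Over all members, 37 genes up to 3 places away on either side have a probe and are no members. Of the 28 compared with 7 factors, 4 were higher and 9 lower, with a median of -0.13. Of the 30 compared with 8 factors, 3 were higher and 8 lower, with a median of -0.14.

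Ahsg, the gene of fetuin-A, a carrier that keeps calcium phosphate in solution, gave signals of 740 with 7 factors, 428 with 8 factors and 9.96 in primary cells. The induced cultures were well above background and the primary culture was not. Its levels were -1.57, -2.57 and -5.66, and Ahsg was at least 12.0-fold higher with 7 factors and at least 5.99-fold higher with 8 (log2 bounds of 3.58 and 2.58). With normexp correction the first bound fell to 0.95 and the second to 0. With the raised floor the first was 0.43, and with 8 factors no value was left. Under both alternatives Ahsg thus did not pass 2-fold. The related gene next to it had the opposite sign. Fetub, the gene of fetuin-B, stood at -1.88, -3.08 and 1.88, with log2 differences of -3.75 and -4.96. Hrg, the gene of histidine-rich glycoprotein beyond it, had differences of -1.65 and -1.98, which are smaller than the scaling step named for Rassf6 and turn without it, and no fold can be given for Kng2.

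The remaining members were dim. Apoa1, the main protein of high density lipoprotein, is spotted 10 times on each array, of which 8, 10 and 9 spots were kept after outlier marks. On the 7-factor array 1 of 8 kept spots was well above background, on the 8-factor array 8 of 10 and on the primary array 0 of 9. The signal ran from 9.26 to 12.6 with 7 factors, from 10.2 over a median of 16.2 to 19.2 with 8 factors, and from 2.84 over 3.04 to 3.48 in primary cells. The mean levels were -7.60 ± 0.17 (SD of spots on 1 array), -7.33 ± 0.27 and -7.34 ± 0.11, all near or below the lowest signal that could be told from background. No fold against primary cells can be given.

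Apob, the scaffold protein of chylomicrons and very low density lipoprotein, has 5 probes. Of these, 1 was well above background on the 7-factor array, with a signal of 22.2, beside 13.3 with 8 factors and 13.6 in primary cells. The other 4 probes lay between 3.07 and 8.39 on all arrays and were not well above background on any. Ttr, the gene of transthyretin, gave 9.13, 7.61 and 3.67 and was not well above background on any array. Of the plasma carriers of thyroid hormone, Ttr and Serpina7, the gene of thyroxine-binding globulin, were thus below that mark in all 3 cultures, and Alb was above it in both induced cultures.

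For Serpina1a, the gene of an antitrypsin, the closest measured genes are its tandem copies. Serpina1d stood at -2.86, -3.40 and -3.24, within 2-fold in both comparisons (0.37 and -0.17, scanner errors of 0.22 and 0.22). This rests on the scaling, since without it the differences were 2.49 and 2.16. Serpina1c gave signals of 15.1, 32.1 and 13.2, the last of them below the background mark, and no fold can be given for it there. These copies are nearly identical in sequence, so a probe named for one may also read another, and the values are uncertain in that respect.

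The induced cultures differ by Hhex. In the comparison of 8 with 7 factors 4.54% of 16260 genes were at least 2-fold higher and 4.04% lower. Of the 7 members compared 0 were higher and 1 was lower. That one was Ahsg, with a log2 difference of -1.002 (2.003-fold lower, scanner error 0.20), at the very edge of the mark. Fgb was 1.73-fold higher (0.79, scanner error 0.20). The differences of Alb, Afp and Fgg, also seen on both arrays, were -0.55, -0.40 and 0.19, with scanner errors of 0.21, 0.29 and 0.21. Apob was seen only with 7 factors and was at least 1.93-fold lower with 8 (bound -0.95, scanner error 0.41). With median scaling its bound was -1.01, which is past 2-fold. The bound of Apoa1 with 8 factors was 0.27 (1.21-fold higher), which is smaller than its scanner error of 0.46. A bound under 2-fold does not show that a gene is within 2-fold. Without scaling the edge shifted, with Fgb at 1.002 and Ahsg at -0.79. The median over the 7 members compared was -0.40, beside -0.09 over all genes. Of the probes of Hhex itself, one stood at -5.67 with 7 factors, -0.76 with 8 and -1.39 in primary cells, and the brighter one at 0.14, 0.87 and 3.34.

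**Figure D4:**
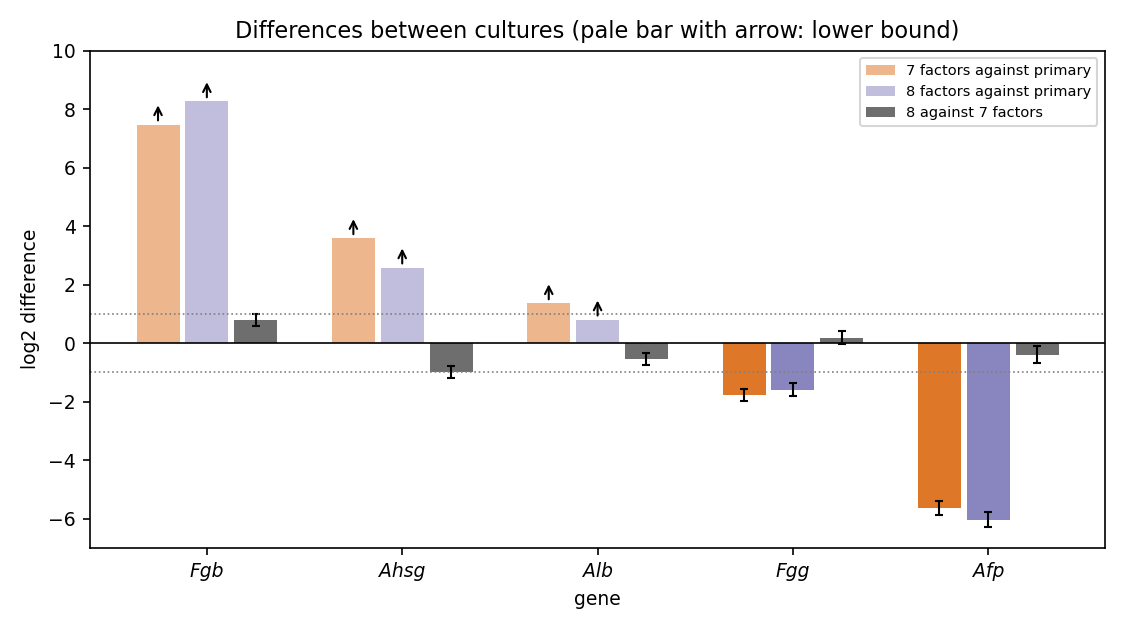
Log2 differences of the 5 members seen in both induced cultures; pale bars with arrows are lower bounds, error bars are the scanner error, and dotted lines mark 2-fold. Fgb, Ahsg and Alb lie above 0 and Fgg and Afp below 0 against primary cells, and the differences between 8 and 7 factors run from -1.002 to 0.79.

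The other genes of plasma proteins differed in both directions as well. Of 31 listed, 30 have a probe. With 7 factors 5 of 26 compared were higher and 9 lower (median -0.50), and with 8 factors 5 were higher and 12 lower (median -0.79). Without scaling these counts became 15 higher and 4 lower, and 14 and 4. By the larger of the 2 comparisons, the largest differences were those of coagulation factor X (F10), with bounds of -7.13 and -7.26, the retinol carrier Rbp4, at 6.32 and 5.39, heparin cofactor II (Serpind1), with bounds of 4.40 and 4.48, and Fetub. With 7 factors alone, vitronectin (Vtn), with a bound of 4.32, and Itih2, a chain of a hyaluronan-binding inhibitor, at 4.14, both singled out after their values were seen, lay ahead of Fetub, and with 8 factors they stood at a bound of 3.35 and at 3.78. These genes kept their signs without scaling.

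Genes of apolipoproteins and lipoprotein assembly beyond Apoa1 and Apob were higher in 2 of 12 cases and lower in 5 with 7 factors, and higher in 2 and lower in 4 with 8. Without scaling 6 were higher and 3 lower with 7 factors, and 7 and 3 with 8. Apoe, Apoc1 and Apoc2, which are abundant in macrophages, had differences of -5.03, -6.67 and -7.02 with 7 factors and of -5.56, -7.45 and -7.31 with 8, and were below 0 without scaling too. Apoa5, the fourth of the largest, stood at -2.37 and -2.59 and at -0.25 and -0.26 without scaling.

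Among the 10 hepatocyte markers, Cyp2e1, a drug-metabolizing enzyme, and Slc10a1, a bile acid transporter, were not well above background on any array. In all, 7 passed that mark with 7 factors, 7 with 8 and 4 in primary cells, and their summed signal, in units of the upper quartile, was 0.371, 0.311 and 7.13. Most of the sum in primary cells came from 1 gene, Asgr1, at a level of 2.75 there. Alb is one of these markers. Of the 15 liver enzymes and receptors compared with 7 factors 1 was higher and 9 were lower (median -2.01), and of 16 with 8 factors 1 was higher and 9 were lower (median -1.57). Without scaling 4 were higher and 5 lower, and 6 and 2. Fbp1 of gluconeogenesis had differences of -6.94 and -7.10, and the asialoglycoprotein receptor subunit Asgr1 of -4.97 and -5.23. The single higher gene, singled out after its value was seen, was the alcohol dehydrogenase Adh1, at 3.29 and 2.30.

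Among the transcription factors of the liver, 0 of 18 were higher and 11 lower with 7 factors. With 8 factors 0 of 17 were higher and 11 lower, and the medians were -1.74 and -1.43. This direction rests on the scaling. Without it 3 were higher and 1 lower with 7 factors, and 6 and 0 with 8. The list includes Hhex, which was delivered to the 8-factor culture. It was counted as lower on its brighter probe, at -3.20 and -2.46, or -1.08 and -0.13 without scaling. The other Hhex probe differed from primary cells by -4.28 with 7 factors and 0.63 with 8. Hnf4a had differences of -2.68 and -3.06 on the probe with the highest mean level over the 3 arrays and of -0.56 and -0.72 without scaling. Another probe of Hnf4a, which was the brighter one on both induced arrays, had the opposite sign, with levels of -4.41 and -4.78 in the induced cultures and no pass of the background mark in the primary one (bounds of 0.73 and 0.37).

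Markers of visceral endoderm and yolk sac were higher in 4 of 14 cases and lower in 8 in both comparisons, and without scaling higher in 7 and lower in 2 with 7 factors and in 6 and 1 with 8. Gata6 was higher, at 3.52 and 3.30, and Sox7 lower, at -5.38 and -4.72, each with the same sign without scaling. Genes of the interleukin 6 response, which raises fibrinogen output in liver, were higher in 4 of 15 cases and lower in 3 with 7 factors and in 4 and 4 with 8, and without scaling in 11 and 1 and in 9 and 1. The serum amyloid gene Saa2 stood at 3.34 and 3.10 and Lcn2, which encodes lipocalin, at -8.75 and -8.73. The receptor subunit Il6ra had differences of -2.41 and -2.64, and of -0.29 and -0.31 without scaling. Choroid plexus markers, taken for Ttr, were lower in 5 of 6 cases in both comparisons, and without scaling lower in 3 and higher in 1. Enterocyte markers, taken for the apolipoproteins, were higher in 1 of 5 and lower in 2 with 7 factors and in 0 and 2 of 6 with 8, and without scaling in 1 and 1 with 7 factors and in 2 and 1 with 8.

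**Figure D5:**
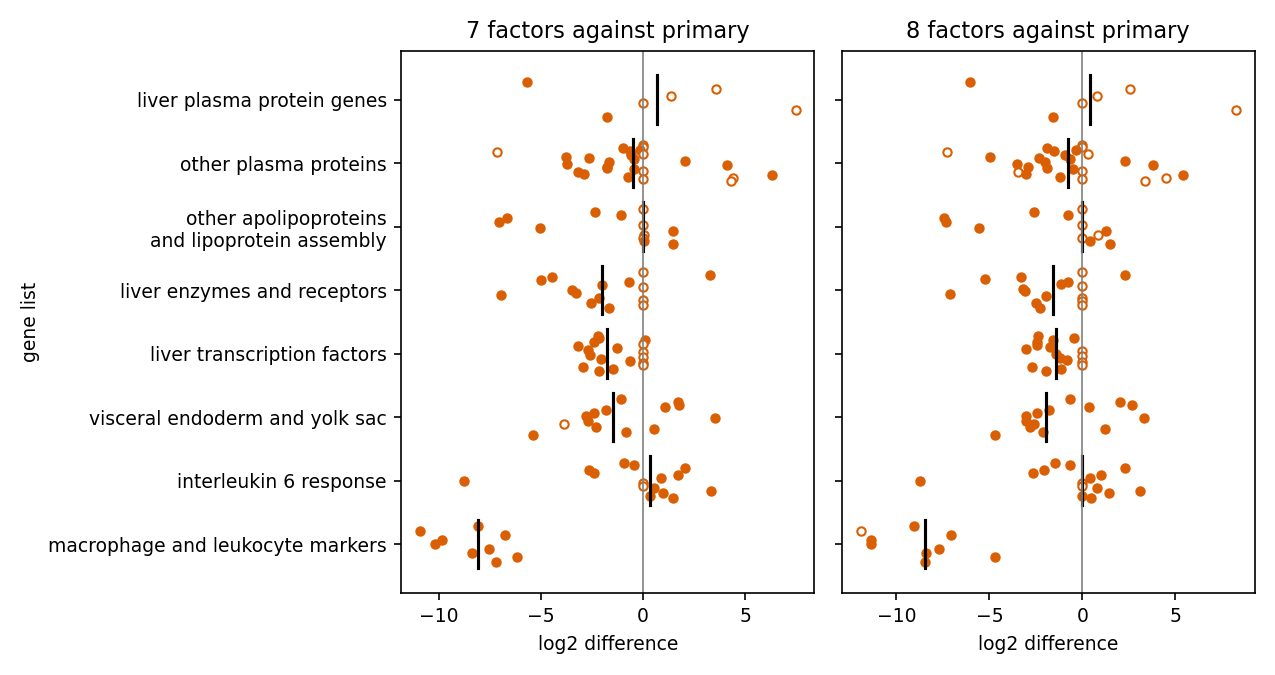
Log2 difference of each induced culture from primary cells for the genes of 8 lists, one point per gene; filled points were measured on both arrays, open points are bounds, those at 0 have no fold, and black lines are medians. Liver plasma protein genes spread to both sides of 0, and macrophage and leukocyte markers all lie below -4.

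Markers of other cell types differed between the cultures as well, with list medians of the same sign with and without scaling. Macrophage and leukocyte markers were lower in 9 of 9 cases in both comparisons, with a summed signal of 0.269 with 7 factors, 0.219 with 8 and 89.9 in primary cells. Thyroid follicular cell markers, all 10 of them well above background in primary cells, were lower in 10 of 10, with sums of 1.89, 2.36 and 523. Without scaling 9 were lower with 7 factors and 8 with 8, and 0 were higher. Foxe1 then stood at -0.36 and 0.25. The list includes the delivered factors Foxe1, Nkx2.1 and Pax8. Most of the induced sums came from Foxe1, at levels of 0.72 and 1.12, and most of the primary sum from Tg, at 8.89. Fibroblast markers were higher in 9 of 10 with 7 factors and 8 of 10 with 8, with sums of 387, 256 and 115. The part of these cell types in the values of Afp, Fgg, Fgb, Ahsg and Alb was not tested.

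The genes most like the 2 members of widest range were sought among 16440 genes, by the largest difference between levels centred over the 3 arrays. For Fgb they were Sptssb (0.05), Myh7 (0.57) and Igf2 (0.66). For Afp they were Lcp2 (0.01), Cblc (0.04) and Stap1 (0.06). Stap1 was below the background mark in both induced cultures, so its likeness rests on floored levels there. Lcp2 had levels of -6.57, -6.95 and -0.90, and Sptssb had 2.43, 3.17 and -7.48, the last below the background mark and raised to the floor of its array for this search, as for Fgb. With 3 arrays such likeness is a description of 3 values.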

How the data were processed

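Total RNA of 3 cultures, 1 array each, was labelled with Cy3 per the labels' protocols. The deposited array files give an intensity for each spot, from Feature Extraction 11.5.1.1 with background subtraction and detrending per the file headers, while the submitters' processing notes name version 10.5. The deposited value table equals these signals, with no scaling between arrays, although the design text names a 75th percentile shift. The other columns, marks of 0 or 1, were set by the same software per the file headers.

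Control spots and outlier spots were left out, repeated spots were averaged as log2 values, and each array's 75th percentile was subtracted, giving 41171 probes. A probe was well above background where most of its spots were. Probes were named by RefSeq accession (GRCm38.p6 table, 67.6% named), and the probe with the highest mean level over the 3 arrays stood for a gene. A gene whose dim probe had a sister well above background on that array was left out of bounds. The text names every member, of each other list up to 4 genes of largest difference, genes up to 3 places from a member, and those nearest in pattern. Second probes of Hhex and Hnf4a were picked for mention after their values were seen. Members and gene lists were chosen with earlier results of these data known. Alternatives used limma 3.58.1; normexp ran on median spot signals, since the files hold no mean signal. Some single genes of the lists are not reported here. Calculations were tested on simulated data. The number of arrays limits the precision.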

Additional observations from a re-analysis of the deposited data

How the results depend on the processing

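No paired analysis was possible because each group holds 1 array. Fgb, Ahsg and Afp kept their direction against primary cells in every alternative that gave them a value above or below 0, and Ahsg with 8 factors had 0 with normexp correction. Without scaling, Fgg turned to 0.34 and 0.74 with 7 and 8 factors, and the medians of the members rose to 2.06 and 1.94. That choice adds one amount to every measured difference. Apob with 7 factors and Apoa1 with 8, counted as 0 with scaling, became bounds of 0.65 and 0.15. With normexp correction 3 members passed 2-fold with 7 factors, in place of 5, and 0 between 8 and 7 factors. The median of the members with 7 factors was then 0.00. Of all genes, 15.2% were then higher and 29.9% lower with 7 factors, and 2.61% and 2.62% between 8 and 7 factors. With only genes seen on both arrays, 19.1% of all genes were higher and 28.8% lower with 7 factors, and 17.6% and 29.4% with 8. Of the members, 2 passed with 7 and 2 with 8 factors. These were Afp and Fgg, the only members compared, as the genes seen only in induced cultures drop out. The medians of -3.71 and -3.82 are thus midpoints of 2 genes. With the raised floor 20.2% of all genes were higher and 18.7% lower with 7 factors, and 18.3% and 19.2% with 8. Between 8 and 7 factors these shares were 2.54% and 2.72%. Of the members 2 and 2 passed, Fgb and Afp in both cases, and 0 between 8 and 7 factors. With 8 factors these 2 were the only members compared, and the median of 1.87 lies between their opposite bounds of 5.12 and -1.38. The median of 0.18 between 8 and 7 factors was over Fgb and Ahsg alone. Between 8 and 7 factors, 2 members passed with median scaling and 0 at 3-fold, and the median was 0.00 with the median over probes. Of all genes, 3.97% were higher and 4.93% lower there with median scaling, and 1.46% and 0.67% at 3-fold. The raised floor turned Afp into a bound against primary cells, and it left Alb and Fgg, which lay under it on all 3 arrays, without a value. It also left Ahsg with a bound of 0.43 with 7 factors and without a value with 8. The cause of the normexp changes was not tested. Signal over background limits Fga, Ttr, Apoa1 and Apob.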
